A study of Mus musculus with 4 samples.

Results

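The small leucine-rich proteoglycans are secreted matrix proteins, and 10 of their genes, Kera, Lum, Dcn, Fmod, Bgn, Ogn, Prelp, Epyc, Aspn and Omd, are described here in mouse eye tissue. Every probe set annotated with exactly 1 symbol from these genes was taken, which gave 21 of the 45037 probe sets that are not array controls and 10 of 18193 genes. The tissue, labelled retina, came from transgenic mice whose aqueous humor contains myocilin, a glycoprotein secreted in the eye, and from control mice. Each group had 2 one-colour arrays. Those of the control group are technical replicates of each other, per the labels, and count as 1 sample. The labels used here give no strain, age or transgene promoter, and do not say whether the transgenic arrays came from separate animals, so the spread behind the p-values may be technical. As labelled, the comparison asks how gene expression in this tissue differs between transgenic and control mice. Rod markers were dim and a corneal keratin was bright in this tissue, as given below, so no change is assigned to retina.

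Each small leucine-rich proteoglycan has a core protein built of leucine-rich repeats that binds collagen and sets how thick fibrils grow and how far apart they lie. In the corneal stroma, keratan sulfate chains on lumican, keratocan and osteoglycin and dermatan or chondroitin sulfate chains on decorin and biglycan help keep the collagen lattice regular and the tissue transparent. Sclera, tendon, cartilage and bone express other mixtures of the same family.

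The labelled tissue and the signals were compared first. Of 12 rod photoreceptor markers, 10 had a probe set, their median signal was 19.0 and none had a mean signal above 150, the trimmed mean of every array. Their summed signal was 356 and 290 on the transgenic arrays, against 339 and 361 on the control arrays. All 10 proteoglycan genes exceeded 150 on their brightest probe set, and 7 of 9 corneal keratocyte markers that are not members and 9 of 10 fibroblast markers did so too. Krt12, the keratin of corneal epithelium, had signals of 13020 and 13173 on the transgenic arrays and 11441 and 10972 on the control arrays. The label retina is thus not borne out by the rod markers, while genes of cornea and connective tissue were bright. Since the tissue was measured in bulk, fewer cells of a type and less RNA per cell cannot be told apart.

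The bases before the start of 3 genes are shown because these members stand for 3 outcomes of the comparison: Kera was called higher in transgenic tissue, Ogn had higher signals on both of its probe sets without passing the test, and Bgn did not separate the groups on any probe set. The sequences are from RefSeq on GRCm38.p6, + strand, at chr10:97606955-97607204 for Kera, chr13:49607765-49608014 for Ogn and chrX:73483351-73483600 for Bgn, and run 5′ to 3′ over the 250 bases that end just before the start. Capitals mark 3 motifs on either strand, the CCAAT box (CCAAT), the GC box (letters GGGCGG) and the TATA box (letters TATAAA).
Kera: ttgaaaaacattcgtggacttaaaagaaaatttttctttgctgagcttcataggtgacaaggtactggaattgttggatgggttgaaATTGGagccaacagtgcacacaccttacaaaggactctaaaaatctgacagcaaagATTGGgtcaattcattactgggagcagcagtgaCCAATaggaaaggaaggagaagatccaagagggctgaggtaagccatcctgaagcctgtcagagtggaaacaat
Ogn: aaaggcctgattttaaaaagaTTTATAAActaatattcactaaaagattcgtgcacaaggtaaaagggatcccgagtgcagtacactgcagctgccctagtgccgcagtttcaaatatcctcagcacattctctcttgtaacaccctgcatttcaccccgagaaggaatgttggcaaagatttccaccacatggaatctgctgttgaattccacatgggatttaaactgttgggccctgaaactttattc
Bgn: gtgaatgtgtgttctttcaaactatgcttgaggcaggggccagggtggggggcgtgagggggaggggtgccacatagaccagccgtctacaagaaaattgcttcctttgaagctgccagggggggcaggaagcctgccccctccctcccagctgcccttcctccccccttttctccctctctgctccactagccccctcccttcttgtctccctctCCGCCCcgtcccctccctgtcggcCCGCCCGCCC

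Kera held CCAAT at 3 places, with first bases at -163, -107 and -74 from the start, of which the first pair reads on the opposite strand. One or more matches to CCAAT were present in 33.8% of the 32851 windows of this length in the table, and 3 or more in 2.79%. Bgn held GGGCGG at 3 places on the opposite strand, at -34, -10 and -6, with the last pair overlapping, against 32.7% of all windows with a match and 8.47% with 3 or more. In Ogn, TATAAA matched on both strands at -229 and -227, far from the start and overlapping, and 12.4% of all windows held these letters. Of the members, 8 had an entry in the table, and Lum and Dcn had none. Among the other members, Aspn held TATAAA and CCAAT, Prelp held CCAAT, and the windows of Fmod, Omd and Epyc held none of these letters. Such matches describe letters in a window and not a site of binding.

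Kera, which encodes keratocan, a keratan sulfate proteoglycan found mainly in the cornea, rose in transgenic tissue. Its signals were 2939 and 3227 on the transgenic arrays, against 1008 and 1094 on the control arrays. Both transgenic arrays lay far above both control arrays, and the mean signal was 3083 ± 204 (SD, n = 2) in transgenic samples and 1051 in the control sample. The change was 1.54 ± 0.11 (log2(signal + 16), SE), with a 95% interval from 1.31 to 1.77 and a limma adjusted p of 0.000286 over all 27022 probe sets tested. The call ended without the filter on dim probe sets (adjusted p = 0.487) and without the intensity trend in the variance (adjusted p = 0.905), while the change stayed between 1.47 and 1.61 in every setting tried.

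**Figure D1:**
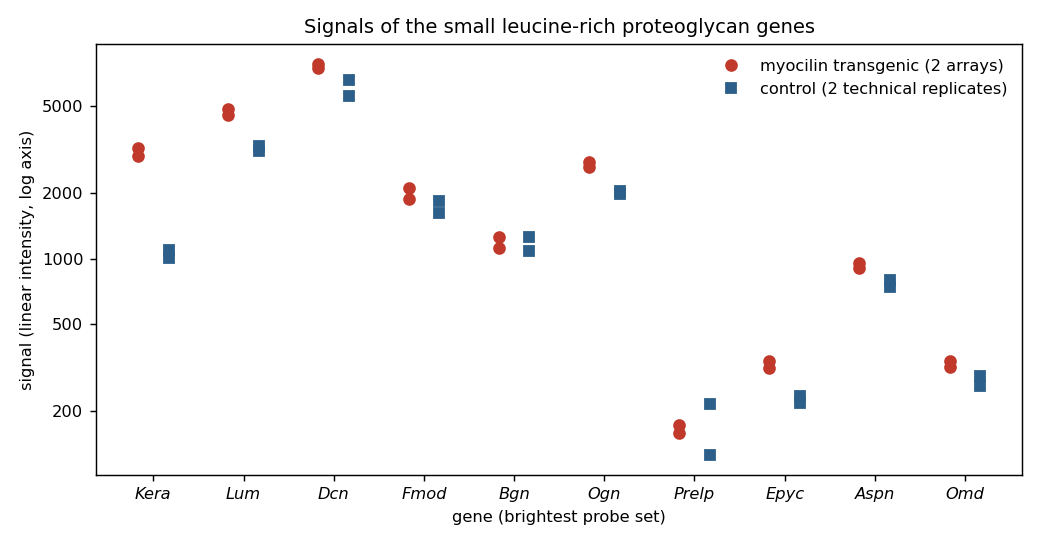
Signals of the brightest probe set of each gene (linear intensity on a log axis), with the 2 myocilin transgenic arrays as circles and the 2 technical control replicates as squares. The circles of Kera, at 2939 and 3227, lie furthest above their squares, at 1008 and 1094, while the symbols of Bgn and Prelp overlap.

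Of the 20 member probe sets tested, Kera's was the only one past an adjusted p of 0.05, in limma, and none passed with lower signal. Over all probe sets tested, 0.0555% were called higher and 0.0222% lower, that is 15 and 6 probe sets, and these became 20 and 19 after quantile normalization and 47 and 9 after median centring. At an unadjusted limma p under 0.05, 8 member probe sets were higher and 1 was lower, against 4.14% higher and 2.92% lower over all probe sets. The lower probe set was Fmod 1438966_x_at, whose control arrays differed by 1.39 on the log2 scale, a spread that its SE leaves out. Both transgenic arrays exceeded both control arrays for 11 of the 20, against 21.1% of all probe sets, and fell below both for 0 of 20, against 23.6%. Probe sets of a gene share transcripts, so these counts do not describe independent genes. With each gene taken by its brightest probe set, 8 of 10 members were higher on both transgenic arrays, against 22.8% of 12722 genes tested. Fmod is counted there on 1456084_x_at, while the arrays overlapped on all its other probe sets. The median log2 change was 0.30 over the members and -0.01 over all genes tested, of which the central 95% lay between -0.50 and 0.46. Probe sets for poly-A control transcripts, which are meant to be added from outside the tissue, had a median log2 change of 0.24. Their part in the members' values was not tested. The members' median change was 0.26 after quantile normalization, 0.40 without control replicate 1 and 0.22 without control replicate 2. Their median signal was 1520, and they were not compared with genes of similar signal.

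**Figure D2:**
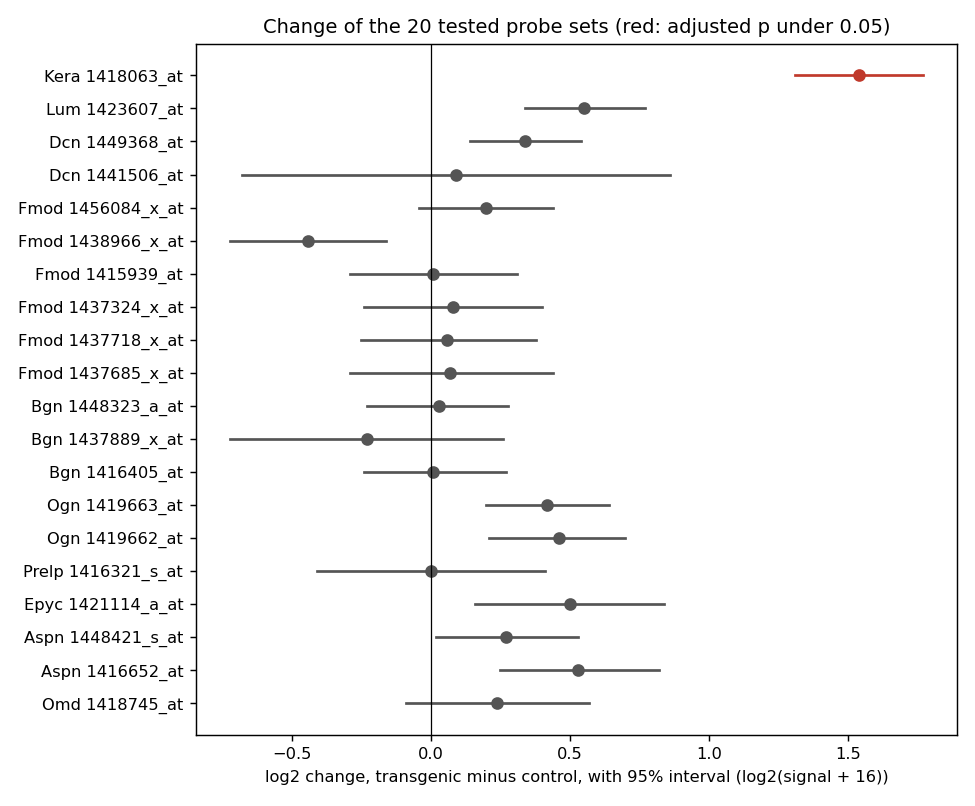
Log2 change, transgenic minus control, of the 20 tested probe sets with its 95% interval, which is not adjusted for multiple tests. Kera, in red at 1.54, is the probe set past an adjusted p of 0.05, and the intervals of every Bgn probe set include 0.

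The other keratan sulfate proteoglycans of the cornea, lumican and osteoglycin, had higher signals in transgenic tissue that did not pass over all probe sets. Lum, which encodes lumican, a regulator of collagen fibril thickness needed for corneal clarity in mice, had signals of 4525 and 4852 on the transgenic arrays, against 3113 and 3263 on the control arrays. The groups did not overlap. Its change was 0.55 ± 0.10 (log2, SE), with a 95% interval from 0.34 to 0.77, an unadjusted p of 0.000126 and a limma adjusted p of 0.113. After median centring Lum passed (adjusted p = 0.00283), with a change of 0.58. Ogn, which encodes osteoglycin, also called mimecan, had signals of 2758 and 2622 on the transgenic arrays and 2047 and 1977 on the control arrays on its brighter probe set. On the dimmer one they were 1552 and 1725 on the transgenic arrays, against 1186 on both control arrays. Both probe sets separated the groups in the same direction, by 0.42 ± 0.10 and 0.46 ± 0.11 (log2, SE), with limma adjusted p of 0.303 and 0.305.

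On the brightest probe sets, the change of Kera was larger than that of each other member. It exceeded the change of Lum by 0.98 on the log2 scale, that of Epyc by 1.04, that of Ogn by 1.12 and that of Bgn by 1.51. These differences are given without a test, since the result for Kera was known when the genes were chosen.

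Decorin, biglycan and asporin form the class whose first 2 members carry chondroitin or dermatan sulfate chains. Dcn, which encodes decorin, a binder of collagen and of transforming growth factor beta, had signals of 7819 and 7494 on the transgenic arrays and 6569 and 5574 on the control arrays. These groups did not overlap, but the technical control replicates differed by 0.24 on the log2 scale, against a change of 0.34 ± 0.09 (log2, SE; limma adjusted p = 0.387). The change of Dcn was 0.15 after quantile normalization and 0.22 without control replicate 2. A dim Dcn probe set, at 36.1 and 38.5 on the transgenic arrays and 35.4 and 32.7 on the control arrays, had a change of 0.09 with an interval from -0.68 to 0.86. Aspn, which encodes asporin, a collagen-binding relative with an aspartate-rich stretch, had signals of 958 and 908 on the transgenic arrays, against 799 and 742 on the control arrays, on its brighter probe set. On its other probe set the signals were 580 and 571 on the transgenic arrays and 412 and 374 on the control arrays. Both Aspn probe sets separated the groups, with changes of 0.27 ± 0.12 and 0.53 ± 0.13 (log2, SE) and limma adjusted p of 0.667 and 0.303, so they differed in size but not in direction.

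Bgn, which encodes biglycan, the closest relative of decorin and a ligand of Toll-like receptors, gave overlapping signals on all 3 of its probe sets. On the brightest they were 1263 and 1120 on the transgenic arrays, against 1260 and 1079 on the control arrays. Its change was 0.03 ± 0.12 (log2, SE), with a 95% interval from -0.23 to 0.28. A second probe set stood at 0.01, from signals of 865 and 887 on the transgenic arrays and 990 and 759 on the control arrays. The remaining one stood at -0.23, with 1326 and 777 on the transgenic arrays and 1264 and 1133 on the control arrays, and its transgenic arrays differed more from each other than from the controls. Its name ends in x_at, which marks probes that can also match other sequences. The direction of the other Bgn probe sets, at 0.03 and 0.01, turned to -0.02 and -0.01 after quantile normalization, so Bgn has no settled direction here.

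Fibromodulin, a collagen-binding member abundant in tendon and sclera, was reported by 6 Fmod probe sets, whose changes ran from -0.44 to 0.20. On the brightest, 1456084_x_at, signals were 2107 and 1874 on the transgenic arrays and 1846 and 1617 on the control arrays. The groups did not overlap there, but the change of 0.20 ± 0.11 (log2, SE; limma adjusted p = 0.787) was close to the 0.19 between the technical control replicates. On 4 others the arrays overlapped and the changes lay between 0.01 and 0.08, among them 1415939_at with signals of 578 and 506 on the transgenic arrays and 557 and 519 on the control arrays. The sixth, 1438966_x_at, had signals of 584 and 669 on the transgenic arrays, against 1392 and 520 on the control arrays. Its change of -0.44 rested on the first control array and was 0.26 without control replicate 1 and -1.14 without control replicate 2, where it passed with an adjusted p of 0.0058 in limma.

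Prelp, which encodes a proteoglycan thought to anchor basement membranes to connective tissue, gave different pictures on its 2 probe sets. On the brighter one, signals were 173 and 159 on the transgenic arrays, within the span of 217 and 126 on the control arrays, and the change was 0.00 ± 0.19 (log2, SE) with a 95% interval from -0.41 to 0.41. That change was 0.36 without control replicate 1 and -0.36 without control replicate 2. The other probe set was at 48.7 and 42.7 on the transgenic arrays and at 5.04 and 7.76 on the control arrays. Both transgenic arrays were higher there, but the probe set lay below the filter on dim probe sets, so it was not tested, and its change of 1.46 became 2.68 with 1 added to each signal in place of 16, and 0.64 with 64 added. Where on the transcript each probe set lies was not analysed here.

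Epiphycan and osteoadherin are members better known from skeletal tissue. Epyc, which encodes epiphycan of growth cartilage, had signals of 339 and 317 on the transgenic arrays, against 236 and 219 on the control arrays. Its groups did not overlap, and the change of 0.50 ± 0.15 (log2, SE) had a limma adjusted p of 0.463. Omd, which encodes osteoadherin, a keratan sulfate proteoglycan of bone, had signals of 340 and 319 on the transgenic arrays and 291 and 262 on the control arrays. The groups did not overlap either, and the change was 0.24 ± 0.15 (log2, SE; limma adjusted p = 0.816), with an interval that includes 0, from -0.09 to 0.57.

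**Figure D3:**
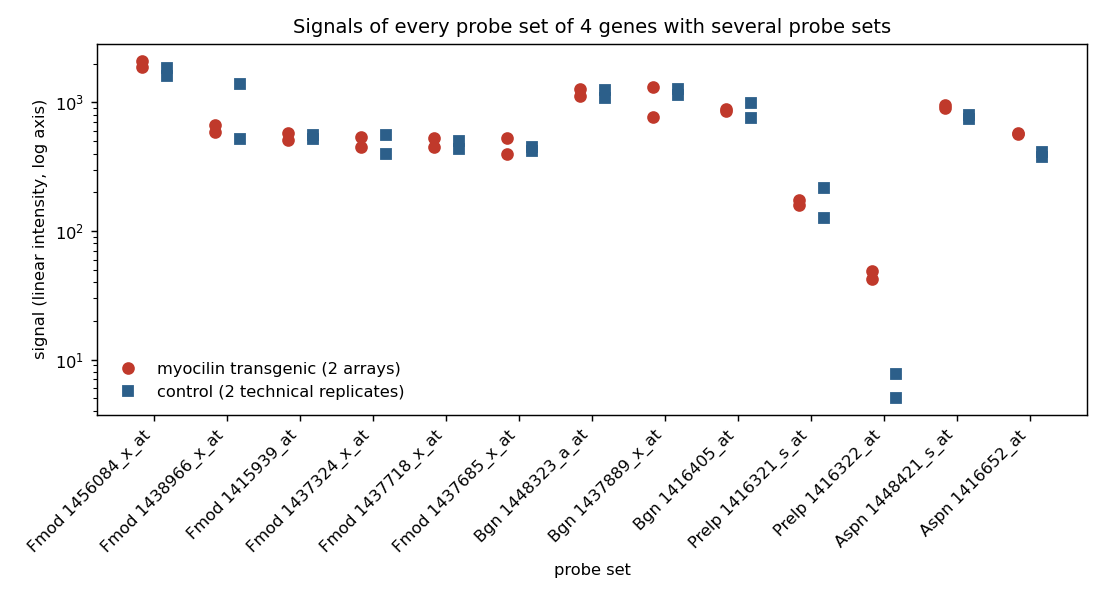
Signals (linear intensity on a log axis) of every probe set of Fmod, Bgn, Prelp and Aspn, with myocilin transgenic arrays as circles and technical control replicates as squares. The first control array stands apart at 1392 on 1 Fmod probe set, and the dim Prelp probe set lies at 48.7 and 42.7 in transgenic tissue and 5.04 and 7.76 in control tissue.

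Most of the members lie beside each other in the RefSeq annotation of GRCm38.p6, and their changes are given in that order as a description made after the values were seen. On chromosome 10, Dcn, Lum, Kera and Epyc follow each other, and their changes were 0.34, 0.55, 1.54 and 0.50. Aspn, Omd and Ogn follow each other on chromosome 13, with changes of 0.27, 0.24 and 0.42. On chromosome 1, Prelp and Fmod are neighbours, with changes of 0.00 and 0.20, and Bgn lies alone on chromosome X at 0.03. The members of the chromosome 10 and chromosome 13 groups were all higher on both transgenic arrays on their brightest probe sets, against 22.8% of all genes tested. Of the remaining members, Fmod was higher on both on its brightest probe set alone, and the arrays of Prelp and Bgn overlapped on theirs. Near the chromosome 10 group, Btg1 stood at -0.06 with overlapping arrays and Atp2b1 at -0.33, lower on both transgenic arrays. Nol8, next to Ogn on chromosome 13, stood at 0.24 and was higher on both transgenic arrays. The arrays overlapped for Ecm2 at 0.04, next to Aspn, for Ccer1 at 0.26, next to Epyc, for Btg2 at 0.15, next to Fmod, and for Haus7 at 0.01, next to Bgn. Atp2b3, on the other side of Bgn, stood at 0.04 and was slightly higher on both transgenic arrays. Genes near the members were picked after their values were seen, and Ecm2 and Ccer1 were too dim to be tested. Optc, a family gene of the vitreous and neighbour of Prelp, had signals of 129 and 75.2 on the transgenic arrays, against 136 and 164 on the control arrays (log2 change -0.53, limma adjusted p = 0.773).

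Genes of related matrix functions were examined through 9 lists with 134 genes, of which 115 were tested. In limma 0 of the 115 passed, while 10 were higher and 5 lower at an unadjusted p under 0.05, where all probe sets gave 4.14% and 2.92%, and their median log2 change was -0.02. Both transgenic arrays were above both control arrays for 29 of them and below for 27, close to the 22.8% and 24.0% over all genes tested. The 4 tested genes of the family outside the members, Optc, Nyx, Chad and Podn, had a median of -0.03, which was 0.00 after quantile normalization and 0.05 without control replicate 1, at changes of -0.53, -0.11, 0.06 and 0.17.

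The collagens that these proteins bind had a median close to that of all genes. Over 11 fibrillar collagen genes the median log2 change was -0.06, and 4 lay above 0 and 7 below. On both transgenic arrays 3 of them were higher and 0 lower, and their summed signal was 13890 and 13828 on the transgenic arrays, against 12463 and 12082 on the control arrays. The median was 0.06 without control replicate 2. Col5a2, a chain of the collagen that limits fibril width, had signals of 1206 and 1278 on the transgenic arrays, against 937 and 972 on the control arrays. Its change was 0.37 ± 0.11 (log2, SE; limma adjusted p = 0.426). Col3a1 stood at 0.28 (adjusted p = 0.531) and Col5a3 at 0.31 (adjusted p = 0.907), and the arrays of Col5a3 overlapped between groups while those of Col3a1 did not. Fibril-associated and stromal matrix genes had a median of 0.13 over 17 genes, with 10 higher and 2 lower on both transgenic arrays. In this list Thbs4, a tendon and muscle matrix protein, stood at 0.39 and Loxl1, an enzyme that cross-links elastin, at 0.28. Tgfbi, a corneal matrix gene induced by transforming growth factor beta, had signals of 4068 and 4508 on the transgenic arrays and 5172 and 5372 on the control arrays, a change of -0.30 ± 0.10 (log2, SE; limma adjusted p = 0.531).

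The enzymes that build the sugar chains had medians close to 0 or below it. Over all settings these ran from 0.02 to 0.07 for keratan sulfate and from -0.19 to -0.03 for chondroitin and dermatan sulfate synthesis. For sulfate and sugar nucleotide supply the median ran from -0.10 to 0.09. For keratan sulfate synthesis, the median log2 change was 0.03 over 11 genes, with 2 higher and 1 lower on both transgenic arrays. Chst5, the sulfotransferase of mouse corneal keratan sulfate, had signals of 384 and 324 on the transgenic arrays and 320 and 285 on the control arrays, a change of 0.21 ± 0.16 (log2, SE). B4galt1, a galactosyltransferase, stood at -0.36 with signals of 348 and 313 on the transgenic arrays, against 439 and 417 on the control arrays, and B4galt4 stood at 0.23 with overlapping arrays. Chondroitin and dermatan sulfate synthesis had a median of -0.16 over 17 genes, with 2 higher and 6 lower on both transgenic arrays. Within it Chst14, the dermatan sulfotransferase, stood at -0.67, Fam20b, a kinase of the linker sugar, at -0.44 and Chst11, a chondroitin sulfotransferase, at 0.38. Sulfate and sugar nucleotide supply had a median of 0.03 over 11 genes, which was -0.03 without control replicate 1, with Slc35d1 at 0.37, Slc35a2 at -0.36 and Tpst1, a tyrosine sulfotransferase, at 0.25. None of these named genes passed in limma (adjusted p from 0.567 for Fam20b to 0.955 for B4galt4).

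Large and cell-surface proteoglycans had a median log2 change of -0.14 over 17 genes, with 2 higher and 7 lower on both transgenic arrays. In that list Cspg4, dim and with overlapping arrays, stood at 0.48 with a 95% interval from -0.35 to 1.3. Srgn, the proteoglycan of secretory granules, stood at 0.45 and Gpc1, a glypican, at -0.42. Receptors and proteases that act on the family had a median of 0.01 over 15 genes (-0.01 after quantile normalization). There Bmp1 stood at -0.37 with overlapping arrays, Tlr2 at 0.35 and Mmp3 at 0.32. Growth factors bound by the family had a median of -0.04 over 12 genes. There Bmp4 had signals of 404 and 302 on the transgenic arrays, against 269 and 208 on the control arrays, a change of 0.54 ± 0.18 (log2, SE; limma adjusted p = 0.534). Bmp2 stood at 0.45 and Pdgfa at 0.30, and both were higher on both transgenic arrays, with adjusted p of 0.577 and 0.765.

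**Figure D4:**
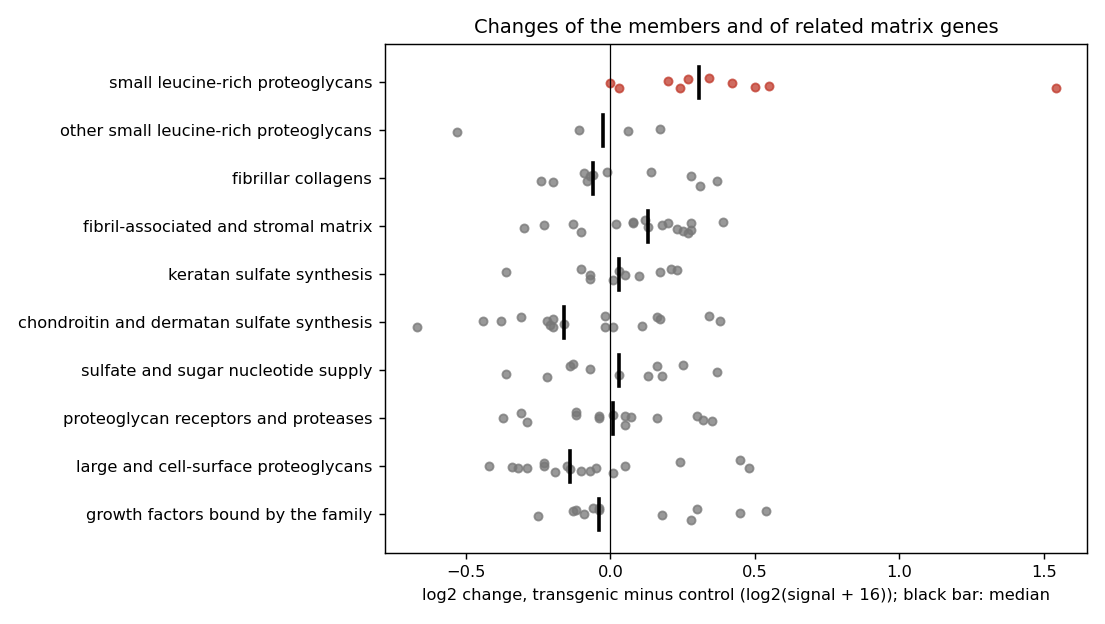
Log2 change, transgenic minus control, of each tested gene by its brightest probe set, for the small leucine-rich proteoglycans (red) and 9 lists of related matrix genes (grey), with black bars at the medians. The members' median is 0.30, while the medians of the other lists lie between -0.16 and 0.13.

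Markers of several tissues that contain these proteoglycans were also measured, and their part in the members' values was not tested. Corneal keratocyte markers that are not members had a median log2 change of 0.16, or 0.07 after quantile normalization, and 7 of 9 were higher on both transgenic arrays, against 22.8% of all genes tested. Limma called 0 of these 9, and 0 had an unadjusted p under 0.05. Their summed signal was 34968 and 38310 on the transgenic arrays, against 33704 and 32733 on the control arrays. Most of it came from Ptgds, Tkt and Aldh3a1, at 9618, 11880 and 10541 on the first transgenic array. Aldh3a1 is also in the corneal epithelium list. The largest changes were 0.22 for Angptl7, 0.21 for Chst5 and 0.20 for Fbln1. Fibroblast markers had a median of 0.12, with 5 of 10 higher and 1 lower on both transgenic arrays and summed signals of 15776 and 15393 on the transgenic arrays, against 13823 and 13446 on the control arrays. In that list Dpt, which encodes dermatopontin, a decorin-binding matrix protein, had signals of 970 and 1022 on the transgenic arrays and 639 and 689 on the control arrays, a change of 0.57 ± 0.12 (log2, SE; limma adjusted p = 0.217). Mfap5 stood at 0.42 there. Cartilage and tendon markers had a median of 0.06 over 9 tested genes, with Tnmd, a tendon gene, at 0.42 and Sox9 at -0.21.

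Among ocular surface layers, corneal epithelium markers had a median log2 change of 0.01 over 7 genes, with 3 higher and 3 lower on both transgenic arrays, which turned to -0.18 after quantile normalization. Cdh1, the epithelial cadherin, stood at -0.56, Upk1b at -0.27 and Krt12 at 0.22. Corneal endothelium markers had a median of 0.12, with Slc4a11, a transporter, at 0.39, Col8a1, a collagen of its basement membrane, at 0.27 and Car2 at -0.17. Skeletal muscle markers had a median of 0.43, 8 of 10 were higher on both transgenic arrays, and they had summed signals of 19524 and 19762 on the transgenic arrays, against 12812 and 13337 on the control arrays. Myl1 at 1.00, Mylpf at 0.87 and Tnni2 at 0.55 led it, of which the first pair passed. Pigment epithelium and melanocyte markers had a median of 0.47, 11 of the 11 tested were higher on both transgenic arrays, and they had summed signals of 48291 and 52317 on the transgenic arrays, against 40485 and 40486 on the control arrays. Rpe65 at 1.24 and Rgr at 1.06 passed there and Lrat stood at 0.64. Lens markers had a median of 0.84 over 7 of 13 genes that passed the filter, or 1.28 with 1 and 0.42 with 64 added to each signal, with Cryaa at 2.00 and Cryba1 at 1.96 called and Crybb2 at 1.03, and the filter kept dim genes of this list that were higher in transgenic tissue. Summed over all 13 lens genes, the signal was 3457 and 3431 on the transgenic arrays, against 2565 and 2502 on the control arrays. Smooth muscle markers had a median of 0.10, with Cspg4 at 0.48 (overlapping arrays), Rgs5 at -0.40 and Tagln at 0.27. Mueller glia markers had 0.10 (-0.01 after quantile normalization), with Rlbp1 at 0.49, Apoe at 0.22 and Clu at 0.15. Ganglion and amacrine markers had -0.26, with Gad1 at -0.82, Rbpms at -0.38 and Nefl at -0.34. For the 3 rod markers tested the median was -0.15, with Sag at -0.27, Rom1 at 0.19 and Pde6g at -0.15.

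Among tested probe sets, those whose pattern over the 4 arrays lay nearest to that of Kera belonged to genes outside the family. Nearness here mainly follows the size of the change, since values were centred but not scaled. No other tested member changed by more than 0.55, so this outcome follows from the changes given above. Likeness was the Euclidean distance between log2 values centred on the control mean, and the 8 nearest tested ones were those of Fitm1 at 0.152, Sln at 0.384, Ly6i at 0.40, Rpe65 at 0.462, Agtr2 at 0.477, Znrf3 at 0.518, Crygb at 0.524 and Pon1 at 0.630. Of these Sln, a regulator of the muscle calcium pump, Rpe65, the retinoid isomerase, Crygb, a lens crystallin, and Pon1, paraoxonase, passed the test, with changes of 1.27, 1.24, 1.84 and 1.13. Crygb, at 119 and 100 on the transgenic arrays and 15.1 and 23.3 on the control arrays, passed the filter through its transgenic arrays. The same holds for Fitm1, Ly6i and Znrf3, whose control signals also lay under the filter signal of about 30. Fitm1, a gene of lipid droplet formation, stood at 1.45 (limma adjusted p = 0.217) with signals of 81.5 and 82.6 on the transgenic arrays, against 18.2 and 21.7 on the control arrays. The dim Prelp probe set, which was not tested, lay at a distance of 0.226 and so nearer than that of Sln, while the next member, Lum, lay at 1.39.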

How the data were processed

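Total RNA from mouse eye tissue was hybridised to 4 one-colour Affymetrix arrays, 2 per group. The values deposited by the authors are linear signal intensities, 1 per probe set and array; the software, settings and genome build behind them are not given in the sources used here. Trimmed means were 150 on every array (2% trimmed at each end) and medians ran from 47.1 to 50.3, so intensities were used as deposited. No detection calls were used, and precision is limited by there being only 4 arrays.

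Gene names came from the platform annotation, where 34945 had 1 symbol, 932 several and 9160 none, and 0 symbols changed when updated. Intensities became log2(signal + 16), a scale that understates changes of dim probe sets. Control arrays were averaged. The 27022 probe sets with a mean above the 40th percentile, a signal of about 30, were analysed in R 4.3.3 by limma 3.58.1, using an intensity trend, two-sided tests and Benjamini-Hochberg adjustment over all of them, at 0.05. Residual degrees of freedom were 1 and prior ones 10.3, and the control sample was taken to vary as the transgenic samples do. Since the control arrays were averaged first, the difference between them enters no SE, interval or p-value. Intervals are limma's, unadjusted. Of 21 member probe sets 20 passed the filter. The brightest probe set stands for a gene. Levels of different probe sets were not ranked.

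The members, lists and tests were chosen with earlier results of these data known. Named are all members, called list genes, up to 3 list genes with the largest absolute change, and the 8 probe sets nearest to Kera; the genes beside the members and Chad were added after values were seen. On simulated data for transgenic against control with 27022 probe sets, the fit called 15.5% of 1.5-fold, 46.7% of 2-fold and 83.2% of 4-fold changes, with 20.6% of calls false. Alternatives were the normalization, pseudocount, filter, technical replicates, replicate block, moderation, each array left out and, after seeing the data, list medians under each of these.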

Additional observations from a re-analysis of the deposited data

Results flagged for a closer look

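Array control probe sets were left out of every test above. Poly-A control transcripts, bacterial RNAs meant to be added to a sample ahead of labelling, have 27 probe sets. On 18 of them both transgenic arrays exceeded both control arrays, and the median log2 change was 0.24. Whether these RNAs were added to the samples here was not checked, nor was their signal level examined. The changes of Omd at 0.24, Aspn at 0.27 and Fmod at 0.20 on their brightest probe sets were of similar size, and that of Kera was 1.54. The part of this shift in the members' values was not tested.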

How the results depend on the processing

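The change of Kera lay between 1.47 and 1.61 in all settings. It was 1.54 but not called without the filter and without the intensity trend (limma adjusted p = 0.487 and 0.905). All member probe sets called numbered 1 of 20 in the fit reported, 2 after median centring, 0 without the filter and 0 without the trend (10 and 4 at an unadjusted p under 0.05), and 1 to 2 when a control array was left out. Over all probe sets 21 were called, against 39 after quantile normalization, 56 after median centring, 0 without the filter, 0 without the trend (2181 and 1059 at an unadjusted p under 0.05) and 14 to 33 without a control array. The replicate numbers do not pair the samples in the labels, and deviations of same-numbered arrays correlated at 0.0955 over probe sets. With 4 arrays as separate samples, which treats technical replicates as samples, 135 probe sets, of which 4 were member probe sets (of Kera, Lum and Ogn), were called without the replicate block. With the replicate block 1740 were called, of which 9 were member probe sets (of Kera, Lum, Dcn, Fmod, Ogn, Epyc and Aspn). The members' median change of 0.30 ran from 0.22 to 0.40 when an array was left out. It was 0.26 after quantile normalization, 0.34 after median centring and 0.42 over the mean of each gene's probe sets.

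Some changes turned direction, most of them close to 0. Others were larger in the fit reported, at -0.44 for Fmod 1438966_x_at and -0.23 for Bgn 1437889_x_at. After quantile normalization the Bgn probe sets 1448323_a_at and 1416405_at stood at -0.02 and -0.01, and at a pseudocount of 64 Prelp 1416321_s_at stood at -0.01. When an array was left out, the change ran from -1.14 to 0.26 for Fmod 1438966_x_at, from -0.08 to 0.10 for 1415939_at, from -0.16 to 0.31 for 1437324_x_at, from -0.05 to 0.18 for 1437718_x_at and from -0.12 to 0.27 for 1437685_x_at. It ran from -0.08 to 0.14 for Bgn 1448323_a_at, from -0.61 to 0.15 for 1437889_x_at, from -0.17 to 0.20 for 1416405_at and from -0.36 to 0.36 for Prelp 1416321_s_at. Over all settings the list medians that turned direction were those of the other small leucine-rich proteoglycans (-0.18 to 0.08), fibrillar collagens (-0.06 to 0.06), sulfate supply (-0.10 to 0.09), receptors and proteases (-0.08 to 0.04), growth factors (-0.05 to 0.03), corneal epithelium (-0.18 to 0.08), corneal endothelium (-0.01 to 0.25), cartilage and tendon (-0.02 to 0.16) and Mueller glia (-0.01 to 0.13). The cause was not tested. Leaving out a transgenic array left no residual degrees of freedom and so no test. The dim Prelp and Dcn probe sets are limited by signal near the filter.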
